A study of Rattus norvegicus with 12 samples.

Results

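Transcripts of 10 core clock genes were followed in the ovaries of 12 rats: Arntl, Clock, Npas2, Per1, Per2, Per3, Cry1, Cry2, Dbp and Tef. The genes were chosen by name as the transcriptional activators, the period and cryptochrome repressors and 2 output factors of the circadian clock, and all 10 were found among the 19730 genes of the expression table. All 10 also had a mean of at least 1 FPKM (fragments mapped to a gene, scaled by its length and by the library's total), the minimum set for a test, as did 13430 genes in all. Each library came from the ovary of 1 female Sprague Dawley rat aged 15 weeks, with 4 rats in each of 3 groups. Control rats ate standard food and were given no letrozole or mogroside V. PCOS rats received letrozole, an aromatase inhibitor, at 1 mg/kg/day together with a high-fat diet for 30 days, which is used as a model of polycystic ovary syndrome. PCOS-MV rats received the same and then mogroside V (MV), a sweet triterpenoid glycoside of the fruit of Siraitia grosvenorii, by gavage at 600 mg/kg/day for 30 days. All rats were killed at the end of the MV period, so the stated letrozole and high-fat diet ended before those last 30 days. They lived under 12 h of light and 12 h of darkness. Whether the PCOS rats were given a vehicle while the PCOS-MV rats received MV is not given in the sources used here. The same holds for a vehicle in control rats, and for the time of day and the estrous stage at which each ovary was taken.

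In the circadian clock, the BMAL1 protein encoded by Arntl pairs with CLOCK or its paralog NPAS2 and activates genes with E-boxes in their promoters, including the Per and Cry genes and Dbp. PER and CRY proteins then return to the nucleus and repress the activators, so that Per and Dbp transcripts peak at another time of day than Arntl. In an added loop, the ROR receptors activate and the REV-ERB receptors (Nr1d1, Nr1d2) repress Arntl through ROR elements. DBP, TEF and HLF are PAR bZIP factors that activate D-box genes, while NFIL3 represses them. Granulosa, theca and luteal cells of the ovary have clocks, and the ovarian response to luteinizing hormone varies with time of day. Each rat gave 1 time point, so that a change in the level of a clock transcript and a shift in its daily phase cannot be told apart in these data.

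The promoter windows of Arntl, Tef and Dbp are shown because Arntl rose while Dbp and Tef fell in PCOS-MV vs PCOS. Each runs from 250 bases before to 50 bases after the transcript start in the RefSeq annotation of the rat build GRCr8, and is written 5′ to 3′ on the gene's own strand. Capitals mark the ROR element of Arntl (TAGGTCA) and the E-box of Tef (CACGTG). Dbp has no capitals because none of the motifs searched was found in its window.
Arntl (chr1:176766078-176766377, plus strand): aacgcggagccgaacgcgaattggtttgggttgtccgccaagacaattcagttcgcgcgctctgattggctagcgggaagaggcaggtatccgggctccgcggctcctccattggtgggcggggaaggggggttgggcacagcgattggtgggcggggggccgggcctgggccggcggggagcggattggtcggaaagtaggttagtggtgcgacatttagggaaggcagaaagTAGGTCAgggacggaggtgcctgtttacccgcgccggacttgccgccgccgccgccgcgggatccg
Tef (chr7:115206577-115206876, plus strand): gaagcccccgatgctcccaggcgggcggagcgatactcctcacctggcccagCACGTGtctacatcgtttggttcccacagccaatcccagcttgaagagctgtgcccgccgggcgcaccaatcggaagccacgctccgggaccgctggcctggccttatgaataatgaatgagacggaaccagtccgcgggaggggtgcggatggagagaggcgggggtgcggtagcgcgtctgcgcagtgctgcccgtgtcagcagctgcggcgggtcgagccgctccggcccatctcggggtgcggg
Dbp (chr1:105312006-105312305, plus strand): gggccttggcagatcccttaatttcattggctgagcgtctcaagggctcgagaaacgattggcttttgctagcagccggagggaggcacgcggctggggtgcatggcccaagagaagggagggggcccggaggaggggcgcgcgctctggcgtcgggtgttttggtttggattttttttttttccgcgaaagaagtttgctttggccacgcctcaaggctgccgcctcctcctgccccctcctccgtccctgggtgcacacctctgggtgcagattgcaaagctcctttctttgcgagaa
RefSeq, where Arntl is listed as Bmal1, gave a window for 9 of the 10 genes, all except Cry1. The motifs were searched on both strands, and no matches overlapped in these windows. A ROR element (TAGGTCA or TGGGTCA) was found in 1 of the 9, in Arntl at position -16 from the start, against 6.60% of 33469 RefSeq promoters of the same length. The canonical E-box CACGTG was found in 1 of the 9, in Tef at position -198, against 6.42% of all promoters. Per2 held the variant E-box CACGTT at -62 and a D-box (TTATGTAA or TTACGTAA) at -192, and Cry2 held CACGTT at -212. In all promoters the variant E-box was present in 4.83% and the D-box in 1.01%. The cAMP response element TGACGTCA was found in 0 of the 9 windows and in 1.83% of all promoters. A match is a description of the letters, and no match says only that these letters are not in this window.

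Summed FPKM ranged from 339830 to 373758 per library and 17576 to 18247 genes had a value above 0, while the number of reads per library is unknown. Correlations of log2(FPKM + 1) between libraries of a group were 0.9721 to 0.9784 in PCOS, 0.9519 to 0.9779 in PCOS-MV and 0.9208 to 0.9745 in Control. Control replicate 3 had the lowest mean correlation with its group (0.936, against 0.9517 to 0.9606 for the others). It also had the highest summed smooth muscle markers (810 FPKM, lowest control 309), adipocyte markers (36.1 FPKM, lowest control 5.27) and ciliated oviduct markers (8.73 FPKM, others 0.445 to 1.90) of the group. Its immediate early genes also stood apart, such as Fos (84.6 FPKM, others 7.70 to 27.4), Nr4a1 (79.6 FPKM, others 14.6 to 20.5) and Junb (116 FPKM, others 26.9 to 51.6), which were chosen after their values were seen. Cell composition markers moved with the groups. Summed theca markers (Cyp17a1, Insl3, Ptch1, Aldh1a1) were 86.9 to 153 FPKM in Control, 1641 to 3233 FPKM in PCOS and 41.2 to 163 FPKM in PCOS-MV. Of these 4 markers, 3 rose and 1 fell in PCOS vs Control, and 3 fell in PCOS-MV vs PCOS. Summed luteal markers were 3764 to 5532, 864 to 1780 and 3344 to 7822 FPKM in the same order, and summed granulosa markers were 565 to 770, 874 to 1264 and 568 to 865 FPKM. Of the 6 luteal markers, 2 rose and 4 fell in PCOS vs Control, while 4 rose and 1 fell in PCOS-MV vs PCOS. Of the 6 granulosa markers, 3 rose in the former comparison and 3 fell in the latter. Endothelial markers summed to 65.8 to 82.8, 37.5 to 44.0 and 55.2 to 80.0 FPKM. The sums of oocyte markers (10.1 to 19.2, 17.0 to 22.7 and 12.6 to 19.1 FPKM) and leukocyte markers (40.0 to 59.6, 48.8 to 57.2 and 51.6 to 63.1 FPKM) overlapped between the groups, but single members differed. Of the 4 oocyte markers, 1 (Ooep) rose in PCOS vs Control and fell in PCOS-MV vs PCOS. Of the 4 leukocyte markers tested, 1 (Csf1r) rose in the former comparison. In the latter, Csf1r fell and Cd68 rose. No measured marker was at 0 in all libraries, and the granulosa, theca and luteal markers of an ovary were all present. In whole ovary RNA, fewer cells of a type and less RNA per cell cannot be told apart. The part of cell composition in the clock gene differences was not tested.

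The clock genes spanned levels from 2.41 to 57.0 FPKM, and their order differed between the groups. In Control, Tef (29.0 ± 9.83 FPKM, mean ± SD, n = 4) and Dbp (27.9 ± 12.9 FPKM) had the highest means, and Npas2 (4.90 ± 0.511 FPKM) had the lowest. The ranges of neighbours in that order overlapped except between Cry2 and Cry1. In PCOS, Dbp (46.9 ± 9.46 FPKM) and Tef (37.1 ± 2.14 FPKM) lay above all other clock genes without overlap, and Arntl (5.81 ± 1.09 FPKM) was last. In PCOS-MV, Arntl (28.2 ± 4.83 FPKM) had the highest mean, Dbp was sixth in order with 7.51 ± 3.07 FPKM, and all neighbours overlapped. Arntl thus had the lowest mean of the 10 genes in PCOS and the highest in PCOS-MV. The dot plot of clock gene FPKM in each ovary shows these levels.

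**Figure D1:**
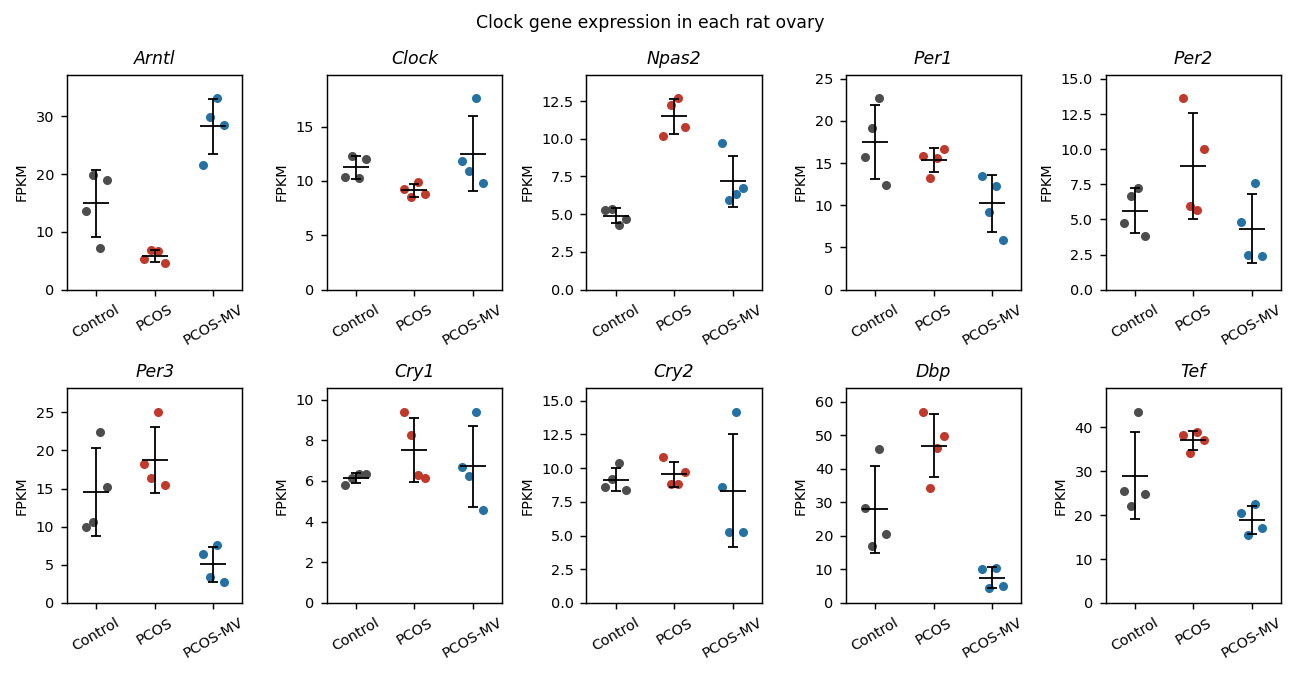
FPKM of the 10 clock genes in each ovary (dots, 4 rats per group), with the mean (dash) and SD (bar) of Control, PCOS and PCOS-MV. Arntl is lowest in PCOS (4.55 to 6.83 FPKM) and highest in PCOS-MV (21.6 to 33.1 FPKM), while Dbp, Tef and Per3 are lowest in PCOS-MV.

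The comparison of PCOS vs Control asks how ovaries of the letrozole and high-fat diet model differ from control ones. The activators of the clock differed: Arntl was lower in PCOS, Npas2 was higher, and Clock was slightly lower. Of the 10 clock genes, 3 were DEGs (limma, Benjamini-Hochberg adjusted p under 0.05 over the 13430 genes tested), 1 higher and 2 lower. This share is near that of all genes tested, of which 27.4% were DEGs (11.9% higher and 15.6% lower). The median log2 change of the 10 genes was 0.31, against -0.03 for all genes tested. The groups did not overlap for these 3 genes, 1 higher and 2 lower, against 31.0% of all genes tested (13.8% higher and 17.2% lower). At an unadjusted p under 0.05 there were 4 of 10 clock genes, against 39.4% of all genes.

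Arntl (ENSRNOG00000014448, chromosome 1, 178039063 to 178137465, plus strand in the authors' coordinates, whose build is not given in the sources used here) encodes BMAL1, the partner that both CLOCK and NPAS2 need. It had 13.7, 19.9, 7.25 and 18.9 FPKM in Control replicates 1 to 4 and 5.24, 6.83, 6.61 and 4.55 FPKM in PCOS replicates 1 to 4. All PCOS ovaries were below all control ovaries, but Control replicate 3 lay close to the highest PCOS value. Arntl fell by 1.15 (SE 0.28) on the log2(FPKM + 1) scale in PCOS vs Control (limma adjusted p = 0.0161), and the exact two-sided permutation test gave the smallest p that 4 against 4 rats allow, 0.0286. The call held when each library was left out in turn, with the highest adjusted p at 0.0497.

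Npas2 (ENSRNOG00000013408, chromosome 9, 45901741 to 46081880, plus strand) can take the place of CLOCK beside BMAL1. Its values were 5.26, 5.38, 4.29 and 4.65 FPKM in Control and 10.2, 12.2, 12.7 and 10.8 FPKM in PCOS. The lowest PCOS ovary was well above the highest control ovary. Npas2 rose by 1.08 (SE 0.10, adjusted p = 0.000104, limma), and its call held in all 8 fits that left out 1 library.

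Clock (ENSRNOG00000002175, chromosome 14) encodes the usual partner of BMAL1. It had 10.4, 12.3, 10.3 and 12.1 FPKM in Control and 9.29, 8.55, 9.92 and 8.81 FPKM in PCOS, with a small gap between the groups. Clock fell by 0.27 (SE 0.08, adjusted p = 0.045, limma). This call depended on the settings: it was lost under 7 of 8 other settings (adjusted p 0.0506 to 0.187) and in 5 of 8 fits that left out 1 library (adjusted p 0.0343 to 0.119 over the 8 fits).

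Dbp, Tef and Per3 were not DEGs in PCOS vs Control, and these results turned on Control replicate 3. Dbp (ENSRNOG00000021027, chromosome 1, 101687855 to 101692846, plus strand), a transcription factor that BMAL1 complexes activate directly, had 28.2, 17.1, 46.0 and 20.4 FPKM in Control and 57.0, 34.4, 46.1 and 49.9 FPKM in PCOS. Tef (ENSRNOG00000019383, chromosome 7, 123043503 to 123058604, plus strand), a second PAR bZIP factor, had 25.6, 22.0, 43.5 and 24.8 FPKM in Control and 38.2, 34.1, 38.9 and 37.0 FPKM in PCOS. Control replicate 3 was the highest control ovary for both and lay among or above the PCOS ovaries, while the other 3 controls lay below all PCOS ovaries. The log2 differences were 0.80 for Dbp (SE 0.29, adjusted p = 0.0692, limma; exact permutation p = 0.0571) and 0.39 for Tef (SE 0.19, adjusted p = 0.157, limma). Per3 (ENSRNOG00000018413, chromosome 5, 168086998 to 168123395, minus strand), a period repressor, had 9.93, 10.6, 22.5 and 15.2 FPKM in Control and 18.2, 16.4, 25.1 and 15.5 FPKM in PCOS, with a log2 difference of 0.39 (SE 0.25, adjusted p = 0.281, limma). Without Control replicate 3, all 3 became DEGs, with adjusted p of 0.00648 for Dbp, 0.00146 for Tef and 0.0458 for Per3 (limma). The clock DEGs were then 6, with 4 higher and 2 lower, and Arntl fell by 1.44 (adjusted p = 0.000648).

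The remaining repressors gave no call. Per1 (ENSRNOG00000007387), the period gene that also responds quickly to cAMP and glucocorticoids, ranged from 12.4 to 22.7 FPKM in Control and 13.3 to 16.7 FPKM in PCOS. Per2 (ENSRNOG00000020254) ranged from 3.83 to 7.22 and from 5.71 to 13.6 FPKM. Cry1 (ENSRNOG00000006622) and Cry2 (ENSRNOG00000007478), the cryptochromes that block the activators, were at 5.80 to 6.33 and 8.41 to 10.4 FPKM in Control and at 6.15 to 9.40 and 8.80 to 10.8 FPKM in PCOS. The groups overlapped for all 4 genes, and the 95% intervals of the log2 difference were -0.53 to 0.23 for Per1, -0.11 to 1.15 for Per2, -0.05 to 0.53 for Cry1 and -0.16 to 0.26 for Cry2. Theca markers were higher and luteal markers lower in the same PCOS ovaries, as given above. Adipocyte markers summed to 0.691 to 3.85 FPKM in PCOS, below the 5.27 to 36.1 FPKM of Control, and both tested members fell (log2 differences of -2.29 for Adipoq and -1.73 for Cidec, adjusted p = 0.0111 and 0.00832, limma). The part of these markers in the clock gene differences was not tested.

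The comparison of PCOS-MV vs PCOS asks what differed in model rats that also received MV. Arntl was higher in PCOS-MV, while Npas2, Per3, Dbp and Tef were lower. Of the 10 clock genes, 5 were DEGs, 1 higher and 4 lower, against 25.7% of all genes tested (14.3% higher and 11.4% lower). The groups did not overlap for these 5 genes, against 30.0% of all genes tested, and at an unadjusted p under 0.05 there were 8 of 10 clock genes against 38.5% of all genes. The median log2 change of the 10 genes was -0.61, against 0.03 for all genes tested. The 5 DEGs passed in each of the 8 fits that left out 1 library. Both this comparison and PCOS vs Control use the same 4 PCOS libraries, so their directions are not independent.

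Arntl had 21.6, 29.8, 33.1 and 28.4 FPKM in PCOS-MV replicates 1 to 4, against 4.55 to 6.83 FPKM in PCOS. Every PCOS-MV ovary had more than any PCOS ovary. Arntl rose by 2.10 (SE 0.15, 95% interval 1.75 to 2.45, adjusted p = 0.000112, limma; exact permutation p = 0.0286). Npas2 had 9.69, 5.91, 6.36 and 6.73 FPKM in PCOS-MV, below the 10.2 to 12.7 FPKM of PCOS, with PCOS-MV replicate 1 closest to them. Npas2 fell by 0.63 (SE 0.14, adjusted p = 0.0137, limma). Thus the activator Arntl and the activator Npas2 moved in opposite directions in both comparisons with PCOS. Clock had 11.8, 10.9, 17.6 and 9.78 FPKM in PCOS-MV, and its log2 difference from PCOS was 0.39 (95% interval 0.03 to 0.75, adjusted p = 0.109, limma), with overlapping groups.

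Dbp showed the widest difference of the 10 genes in this comparison. It had 10.05, 4.56, 10.3 and 5.15 FPKM in PCOS-MV, against 34.4 to 57.0 FPKM in PCOS. All PCOS-MV ovaries were far below all PCOS ovaries. Dbp fell by 2.54 (SE 0.26, 95% interval -3.15 to -1.94, adjusted p = 0.00045, limma). Tef had 20.4, 15.6, 22.5 and 17.1 FPKM in PCOS-MV and fell by 0.95 (SE 0.11, adjusted p = 0.000803, limma) from the 34.1 to 38.9 FPKM of PCOS, again without overlap.

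Among the repressors, Per3 had 6.39, 3.47, 7.64 and 2.69 FPKM in PCOS-MV, all below the 15.5 to 25.1 FPKM of PCOS. It fell by 1.77 (SE 0.28, adjusted p = 0.00277, limma), and the exact permutation test gave 0.0286. Per1 had 13.4, 9.25, 12.3 and 5.88 FPKM in PCOS-MV, and only PCOS-MV replicate 1 reached into the PCOS range. Its log2 difference was -0.60 (95% interval -1.09 to -0.10, adjusted p = 0.0763, limma), and without PCOS-MV replicate 1 the adjusted p was 0.0397. Per2 had 4.79, 2.48, 7.62 and 2.41 FPKM, with PCOS-MV replicate 3 inside the PCOS range, and a log2 difference of -0.91 (95% interval -1.73 to -0.10, adjusted p = 0.095, limma). Cry1 (4.59 to 9.37 FPKM) and Cry2 (5.24 to 14.2 FPKM) overlapped PCOS widely, with log2 differences of -0.16 (95% interval -0.61 to 0.29) and -0.27 (95% interval -0.88 to 0.34). PCOS-MV replicate 3 held the highest value of its group for Clock, Per2, Per3, Cry1, Cry2, Dbp, Tef and Arntl. Without that library, Per2 (adjusted p = 0.0313) and Cry2 (adjusted p = 0.049) also passed, and the clock DEGs were 7. Luteal markers were also highest in PCOS-MV replicate 3 as a sum (7822 FPKM, the others 3344 to 3926). The sum was carried by Akr1c18 (4692 FPKM, listed as Akr1c3 in the table) and Star (2891 FPKM). Ptgfr (173 FPKM) was also highest there and Lhcgr (57.5 FPKM) lay inside the range of the group. Parm1 (7.05 FPKM) and Hsd11b2 (1.40 FPKM) were lowest there. The part of these markers in the clock gene values of PCOS-MV replicate 3 was not tested.

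**Figure D2:**
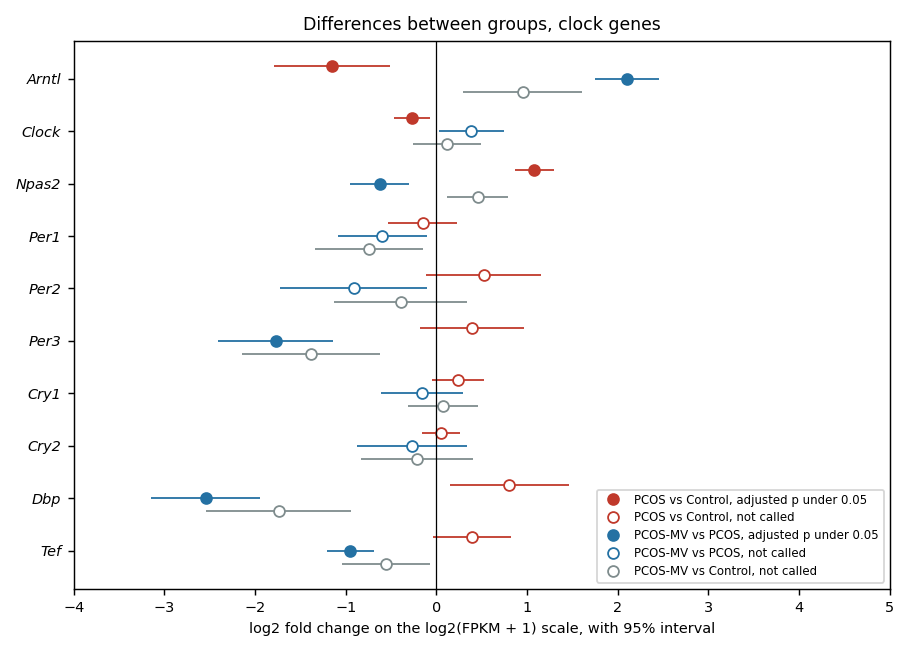
Log2 fold change on the log2(FPKM + 1) scale with its 95% interval for the 10 clock genes, with PCOS vs Control in red, PCOS-MV vs PCOS in blue and PCOS-MV vs Control in grey. Filled points passed an adjusted p of 0.05 (limma). Arntl lies at -1.15 and 2.10 and Dbp at 0.80 and -2.54 in the red and the blue comparison.

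The comparison of PCOS-MV vs Control asks where the ovaries of MV rats stood relative to control rats. None of the clock genes was a DEG (0 of 10, limma), in a comparison where 1 of the 13430 genes tested was called (0.00745%). At an unadjusted p under 0.05 there were 6 of 10 clock genes, against 8.50% of all genes tested. The groups did not overlap for 4 clock genes, 2 higher (Arntl, Npas2) and 2 lower (Per3, Dbp) in PCOS-MV, against 5.10% of all genes tested (2.81% higher and 2.29% lower). The median log2 difference of the 10 genes was -0.31, against -0.0037 for all genes tested.

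All 4 PCOS-MV ovaries had more Arntl (21.6 to 33.1 FPKM) than any control ovary (7.25 to 19.9 FPKM), with a log2 difference of 0.95 (95% interval 0.29 to 1.61, adjusted p = 0.497, limma). Dbp was at 4.56 to 10.3 FPKM in PCOS-MV and 17.1 to 46.0 FPKM in Control, with a log2 difference of -1.74 (95% interval -2.54 to -0.94, adjusted p = 0.453, limma). Per3 was at 2.69 to 7.64 and 9.93 to 22.5 FPKM, and its log2 difference was -1.38 (95% interval -2.14 to -0.62, adjusted p = 0.459, limma). These 3 genes and Npas2 (5.91 to 9.69 against 4.29 to 5.38 FPKM, log2 difference 0.45, adjusted p = 0.509) were separated between the groups, each at the smallest exact permutation p of 0.0286. For Tef and Per1 the groups overlapped, with log2 differences of -0.56 (95% interval -1.04 to -0.07) and -0.75 (95% interval -1.34 to -0.15). In the same ovaries, 0 of the 16 granulosa, theca and luteal markers were called (limma), where 1 of all 13430 genes tested was called. Of the 16, 1 had an unadjusted p under 0.05, against 8.50% of all genes tested. Of 3 endothelial markers tested, 0 were called (limma) and 2 had an unadjusted p under 0.05. These were Kdr and Tek, with log2 differences of -0.29 and -0.26. Adipocyte markers summed to 5.27 to 36.1 FPKM in Control and 1.09 to 2.03 FPKM in PCOS-MV. The part of all these markers in the clock gene differences was not tested.

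The ratio of Dbp to Arntl FPKM separated the 3 groups, apart from Control replicate 3. It was 2.06, 0.859, 6.34 and 1.08 in Control, 10.9, 5.04, 6.98 and 11.0 in PCOS and 0.465, 0.153, 0.311 and 0.181 in PCOS-MV. Control replicate 3 lay inside the PCOS range, and the highest PCOS-MV ratio was below the lowest control ratio. Arntl and Dbp each separated PCOS-MV from both other groups in opposite directions, so the ratio had to do so too. Arntl alone also separated all PCOS ovaries from all control ovaries. The theca markers of Control replicate 3 summed to 87.3 FPKM, inside the control range and far below the lowest PCOS library at 1641 FPKM. Its luteal markers summed to 5532 FPKM, the highest of the controls, carried by Akr1c18 (3428 FPKM). Its Ptgfr (152 FPKM) and Hsd11b2 (7.06 FPKM) were also the highest of the controls. Its Star (1910 FPKM) lay inside the control range, while its Lhcgr (28.7 FPKM) and Parm1 (7.17 FPKM) were the lowest of the controls. The part of cell composition in the ratio was not tested.

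**Figure D3:**
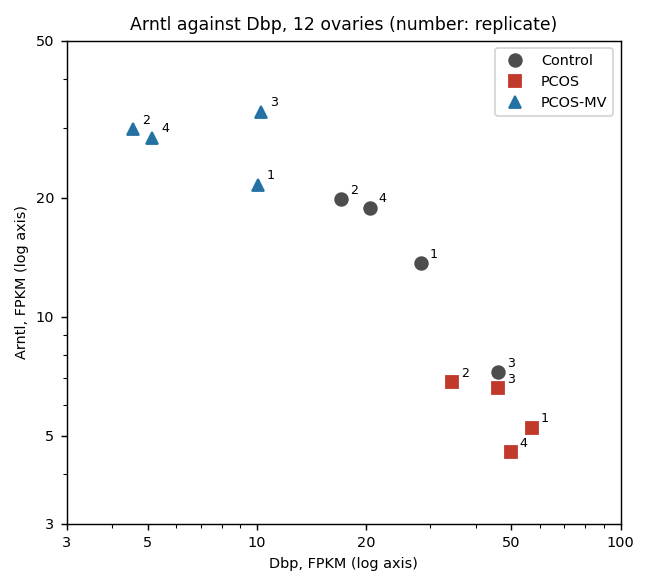
Arntl FPKM against Dbp FPKM (log axes) in each of the 12 ovaries, with the replicate number beside each point. PCOS ovaries have 4.55 to 6.83 FPKM of Arntl and 34.4 to 57.0 FPKM of Dbp, PCOS-MV ovaries have 21.6 to 33.1 and 4.56 to 10.3 FPKM, and Control replicate 3 lies beside the PCOS ovaries.

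Most clock genes varied more among rats of a group than the typical gene. The within-group SD on the log2 scale was 0.53 for Per2, 0.50 for Dbp, 0.48 for Per3 and 0.41 for Arntl, against a median of 0.18 over the genes tested. These values were at percentiles 93.1, 92.2, 91.5 and 88.3 of all genes tested. Npas2 (0.19, percentile 55.0) and Clock (0.22, percentile 62.0) varied least. In Control the SD of Arntl was 0.62 and that of Dbp 0.61, while in PCOS both were lower, at 0.24 and 0.30.

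Whether the clock genes varied together among rats of the same group was tested for the 9 pairs with Arntl, after subtraction of each group mean (12 libraries, exact permutation of Arntl within groups). The most negative correlations were with Tef (r = -0.758, exact p = 0.0749, adjusted over 9 pairs 0.337, rho = -0.538, exact p = 0.133) and Dbp (r = -0.743, exact p = 0.0209, adjusted 0.188, rho = -0.615, exact p = 0.0822). None of the 9 passed after adjustment. The other r ranged from -0.466 for Per1 to 0.409 for Clock. Without Control replicates 2 and 3, which lay farthest from the median of Arntl, r was -0.473 for Dbp (exact p = 0.233) and -0.127 for Tef (exact p = 0.839), so that the relation with Tef rested on these libraries. Single libraries also decided the outcome in the other direction. Without PCOS-MV replicate 3, r was -0.91 for Dbp (adjusted exact p = 0.0208), -0.91 for Tef (adjusted exact p = 0.0443) and -0.59 for Cry2 (adjusted exact p = 0.046).

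As a description with no test, the Per and Cry genes, Dbp and Tef had positive r with each other after each group mean was subtracted. These r values pool the 3 groups and do not hold in each one. In PCOS replicates 1 to 4, Per2 had 13.6, 5.94, 5.71 and 9.98 FPKM, while Per3 had 18.2, 16.4, 25.1 and 15.5 FPKM. PCOS-MV replicate 3 was the highest of its group for Per2, Per3, Cry1, Cry2, Dbp and Tef. All 21 pairs of these 7 genes had r above 0, from 0.289 to 0.906, over libraries that share their preparation. Dbp and Tef had the highest r (0.906), followed by Per2 and Cry2 (0.858). Clock had a higher r with Cry2 (0.807) than with Arntl (0.409). PCOS-MV replicate 3 had the highest Clock (17.6 FPKM, the others 9.78 to 11.8) and Cry2 (14.2 FPKM, the others 5.24 to 8.62) of its group. The r of Clock and Cry2 without that library was not computed. Per3 and Tef had r = 0.800.

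**Figure D4:**
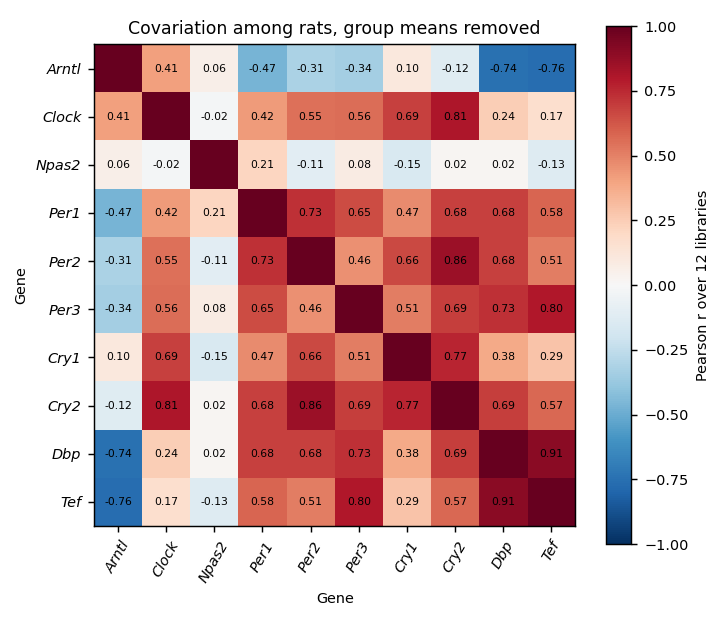
Pearson r between clock genes over 12 ovaries after subtraction of each group's mean log2(FPKM + 1), from -1 (blue) to 1 (red). The block of Per1, Per2, Per3, Cry1, Cry2, Dbp and Tef holds only values above 0 (0.289 to 0.906), and Arntl has its most negative values with Dbp (-0.74) and Tef (-0.76).

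The other genes of the clock loops were read in the same fits. Of 11 such genes, 8 were tested, and Rorb, Ciart and Arntl2 had a mean under 1 FPKM. In PCOS vs Control 1 rose and 3 fell, while MV rats compared with PCOS rats had 2 that rose and 4 that fell. DEGs made up 27.4% of all genes tested from Control to PCOS and 25.7% from PCOS to PCOS-MV. In PCOS-MV vs Control 0 of 8 were called (limma), where 1 of all 13430 genes tested was called. Of the 8, 4 had an unadjusted p under 0.05, against 8.50% of all genes tested. The groups did not overlap for 3 of the 8, against 5.10% of all genes tested. The median log2 change of the 8 genes was -0.19 from Control to PCOS and -0.24 from PCOS to PCOS-MV.

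Rora encodes an activating receptor known to act on ROR elements, the motif found in the Arntl window above. It had 44.4, 50.9, 17.99 and 34.5 FPKM in Control, 15.5, 15.0, 17.0 and 15.8 FPKM in PCOS and 61.8, 37.9, 69.0 and 34.9 FPKM in PCOS-MV. All PCOS ovaries were below all others, and Control replicate 3 was nearest to them. Rora fell by 1.08 (adjusted p = 0.0197, limma) in PCOS vs Control and rose by 1.57 (adjusted p = 0.00135) in PCOS-MV vs PCOS.

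Nr1d2, which encodes the repressor REV-ERB beta, had 25.4 to 39.3 FPKM in Control, 30.3 to 35.2 FPKM in PCOS and 11.5 to 17.7 FPKM in PCOS-MV. It fell by 1.12 (adjusted p = 0.000674, limma) in PCOS-MV vs PCOS, with a log2 difference of 0.12 (adjusted p = 0.52) in PCOS vs Control. Nr1d1, which encodes REV-ERB alpha, had 34.8 to 40.8, 23.2 to 33.5 and 8.71 to 22.0 FPKM. It fell by 0.38 (adjusted p = 0.0456, limma) and by 1.10 (adjusted p = 0.0121). Nr1d1 shares 1059 bases with Thra on the opposite strand (mean 27.3 FPKM). With no statement that the counting used strand, how reads in that stretch were assigned is unknown. The Nr1d1 values are uncertain to that extent.

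In PCOS-MV vs PCOS, the D-box factors outside the 10 genes went with Dbp and Tef or opposite to them. Hlf, the PAR bZIP paralog of Dbp and Tef, had 2.84 to 4.93 FPKM in Control, 4.36 to 7.26 FPKM in PCOS and 1.54 to 2.05 FPKM in PCOS-MV. Hlf rose by 0.61 in PCOS vs Control (adjusted p = 0.0327, limma), with overlapping groups (exact permutation p = 0.0571). It fell by 1.24 in PCOS-MV vs PCOS (adjusted p = 0.000628, limma). Nfil3, the repressor of D-box genes, had 4.42 to 5.29 FPKM in PCOS and 7.55 to 17.0 FPKM in PCOS-MV and rose by 1.28 (adjusted p = 0.00414, limma). Among the E-box repressors, Bhlhe40 fell by 0.61 (adjusted p = 0.0448, limma) in PCOS vs Control and Bhlhe41 fell by 0.60 (adjusted p = 0.0395) in PCOS-MV vs PCOS. Bhlhe40 had 17.5, 20.8, 34.1 and 18.7 FPKM in Control, highest in replicate 3, and 12.2 to 15.3 FPKM in PCOS. Single-gene results under other settings are given only for the 10 clock genes. Timeless, a replication fork gene with a role in the clock, gave no call (adjusted p = 0.822 and 0.632).

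**Figure D5:**
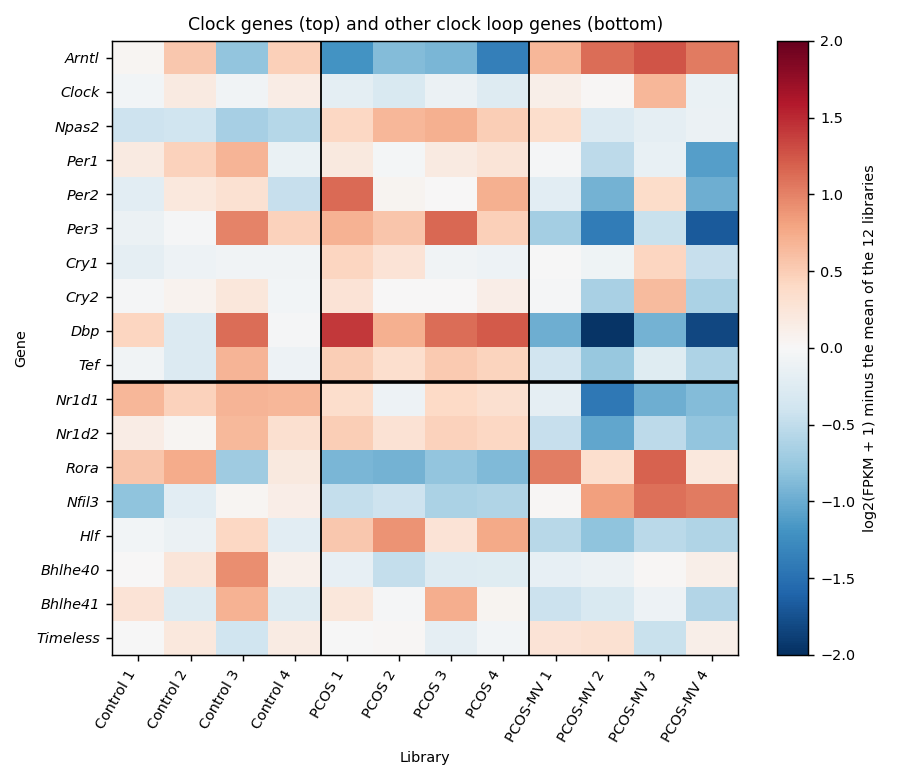
Log2(FPKM + 1) minus the mean of the 12 libraries for the 10 clock genes (top) and 8 other clock loop genes (bottom), one column per ovary. In PCOS-MV, Arntl and Rora are above their mean and Dbp, Tef, Per3, Nr1d1, Nr1d2 and Hlf below it, while Control replicate 3 differs in colour from the other controls for Arntl, Dbp, Tef and Rora.

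Genes around the clock were counted by group. Of 9 tested modifiers of clock proteins (kinases and ubiquitin ligases), 0 rose and 3 fell in PCOS vs Control, and 2 rose and 0 fell in PCOS-MV vs PCOS, near the 27.4% and 25.7% DEGs among all genes tested. Btrc, a ubiquitin ligase subunit that marks PER proteins for breakdown, fell by 0.48 (adjusted p = 0.00145, limma) and rose by 0.50 (adjusted p = 0.0156). Its paralog Fbxw11 fell by 0.28 (adjusted p = 0.0402) in PCOS vs Control, with a log2 difference of 0.21 (adjusted p = 0.122) in PCOS-MV vs PCOS. Prkaa1, the AMPK subunit that phosphorylates CRY1, fell by 0.25 (adjusted p = 0.0123) and rose by 0.28 (adjusted p = 0.0162). Of 8 output genes that follow the clock in many tissues, 1 rose and 0 fell in PCOS vs Control, and 0 rose and 4 fell in PCOS-MV vs PCOS. Over all genes tested, 27.4% were DEGs in the former comparison (11.9% higher) and 25.7% in the latter (11.4% lower). The output gene that rose was Lonrf3 (rose by 0.74, adjusted p = 0.000985, limma). The 4 that fell were Klf9, a Krüppel-like factor (fell by 0.56, adjusted p = 0.00092, limma), Wee1, a cell cycle kinase (fell by 0.58, adjusted p = 0.0259), Lonrf3 (fell by 0.51, adjusted p = 0.0137) and Usp2, a deubiquitinase (fell by 0.45, adjusted p = 0.0486).

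Per1 is also induced by glucocorticoids and cAMP, so genes that respond to these were read beside it. Of 7 glucocorticoid-responsive genes, 0 rose and 2 fell in PCOS vs Control, and 2 rose and 3 fell in PCOS-MV vs PCOS. The former share is near the 27.4% of all genes tested, and the latter stands beside 25.7%. In PCOS vs Control, Dusp1, a phosphatase of MAP kinases, fell by 1.63 (adjusted p = 0.00357, limma). Sgk1, a serum and glucocorticoid kinase, fell by 1.28 (adjusted p = 0.000242, limma). Members went both ways in PCOS-MV vs PCOS, where Sgk1 rose by 1.28 (adjusted p = 0.00166, limma). Zbtb16, a zinc finger factor, fell there by 1.88 (adjusted p = 0.000754) and Errfi1, an inhibitor of ERBB receptors, by 0.96 (adjusted p = 0.00201). Of 7 tested immediate early genes, 0 were called in PCOS vs Control (limma, 0 also at an unadjusted p under 0.05), and 1 fell in PCOS-MV vs PCOS, Egr1 (fell by 0.93, adjusted p = 0.0474), both counts below the shares over all genes tested. Of the ovarian genes tied to the clock, Star, which delivers cholesterol for steroid synthesis, fell by 1.70 (adjusted p = 0.00241, limma) in PCOS vs Control and rose by 1.57 (adjusted p = 0.00742) in PCOS-MV vs PCOS. Lhcgr, the receptor of luteinizing hormone, rose by 1.39 (adjusted p = 0.0104, limma) and fell by 1.89 (adjusted p = 0.0269). Ptgs2 had a mean under 1 FPKM. Star and Lhcgr are also among the luteal markers, which moved with the groups, and their part in these changes was not tested.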

How the data were processed

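Ovarian RNA of 12 rats was sequenced in 1 library per rat and assigned to 3 groups of 4 by the sample titles. The authors deposited FPKM per gene, computed from read counts and gene lengths. The study's methods name HISAT2 2.0.5 and featureCounts, while the submitters' processing notes list STAR 2.5.1b and HTSeq 0.6.0, so the aligner is uncertain. The build is not given in the sources used here. Columns of the authors' own comparisons (log2 fold changes, p-values and adjusted p-values) were not used. FPKM carries no depth, so precision comes from the spread between rats alone.

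The 26928 transcript lines were reduced to 19730 genes. The 13430 genes averaging 1 FPKM or more entered limma 3.58.1 (eBayes with trend, R 4.3.3) on the log2(FPKM + 1) scale, 4 libraries against 4, with no covariate. They were called DEGs at a Benjamini-Hochberg adjusted p under 0.05 over all genes tested. This scale understates changes of low genes. Exact permutation tests used Python 3.11.15 and scipy 1.17.1. The limma step was tested on simulated data. Alternatives covered the pseudocount, the filter, the scaling, the variance trend, 1 model for 12 libraries, the replicate number as a block, and each library left out.

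The clock genes and the gene lists were chosen with earlier results of these data known. All 10 clock genes and all tested clock loop genes used here are named (1 further gene of that list is not reported here), and up to 4 called genes with the largest change of each further list. For likeness of pattern, the 5 genes of highest Pearson r with Dbp and with Arntl are named. The clock genes and genes with only a provisional symbol were left out of this ranking. Promoter windows are from RefSeq (GRCr8).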

Additional observations from a re-analysis of the deposited data

Results flagged for a closer look

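Among the clock and clock loop genes, each gene's 4 values in a group were searched for a library standing apart, and 54 such sets gave 1, where chance gives about 2.7. Nr1d1 had 34.8 FPKM in Control replicate 2, against 40.2 to 40.8 FPKM in the other 3 controls, so that the gap to the nearest library was 0.903 of the range of the group. Nr1d1 overlaps Thra on the opposite strand, and without a statement on strand its values are uncertain.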

How the results depend on the processing

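Under the settings that kept all libraries, 232 clock gene differences kept their direction and their side of the threshold, 7 lost the call, all of them Clock in PCOS vs Control, and 1 gained it, Dbp in PCOS vs Control with the replicate number as a block (adjusted p = 0.0447). Same-numbered libraries showed little shared deviation over all genes tested. The r values were -0.033 to 0.024 for Control and PCOS and 0.035 to 0.172 for PCOS and PCOS-MV. For Control and PCOS-MV they were -0.053 to 0.216. Whether the numbers pair the rats cannot be told from these r values, which could miss a pairing that acts on few genes. With the replicate block, clock genes called were 3, 5 and 0 in PCOS vs Control, PCOS-MV vs PCOS and PCOS-MV vs Control, and genes called over the whole table were 2905, 3079 and 0. Leaving out 1 library gave 2 to 6, 5 to 7 and 0 clock genes, and 2762 to 3915, 2445 to 3354 and 1 to 4 genes over the whole table. The count of 6 came without Control replicate 3 and that of 7 without PCOS-MV replicate 3. Over the same fits the log2 difference of Cry2 in PCOS vs Control ran from -0.0035 to 0.11, and in PCOS-MV vs Control that of Clock from -0.048 to 0.21 and of Cry1 from -0.078 to 0.22. The correlation with Arntl ran from -0.33 to 0.60 for Npas2, -0.53 to 0.18 for Per3, -0.068 to 0.24 for Cry1, -0.59 to 0.041 for Cry2, -0.91 to -0.53 for Dbp and -0.91 to -0.23 for Tef. Collection time and the depth of the libraries are unknown, 4 rats a group limit the precision, and cell composition moved with the groups. The cause of these changes between settings was not tested.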

Other observations

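The genes whose log2(FPKM + 1) went most closely with Dbp over the 12 libraries were Nr1d2 (r = 0.965), Rasd1 (0.953), Tsen54 (0.942), Rasef (0.935) and Epm2a (0.93). These r values mix differences between groups with those among rats and are given as a description. Rasd1, a Ras-related gene known for induction by dexamethasone, had 17.9 to 61.3 FPKM in Control, 38.4 to 66.4 FPKM in PCOS and 6.87 to 14.2 FPKM in PCOS-MV. Epm2a, which encodes the glycogen phosphatase laforin, had 1.86 to 3.02, 3.03 to 4.00 and 0.739 to 2.33 FPKM in the same order. Among the clock genes, Tef (0.962) and Per3 (0.941) were closest to Dbp and Arntl (-0.933) was farthest.

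With Arntl, the closest genes of the same ranking were Washc5 (r = 0.979), Fam126a (0.966), Cdkn1b (0.962), Rnf8 (0.961) and Sumf1 (0.957). Cdkn1b, which encodes the cell cycle inhibitor p27, had 67.9 to 124 FPKM in Control, 51.0 to 68.0 FPKM in PCOS and 115 to 156 FPKM in PCOS-MV. The ranges of PCOS and PCOS-MV did not overlap, and Control overlapped both.

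Ciart, a clock repressor below the minimum for a test, had 0.198, 0.342, 1.30 and 0.355 FPKM in Control, 3.35, 1.05, 1.50 and 1.12 FPKM in PCOS and 0.532, 0.332, 0.201 and 0.180 FPKM in PCOS-MV. The highest PCOS-MV value lay below the lowest PCOS value, and Control replicate 3 lay inside the PCOS range, as it did for the ratio of Dbp to Arntl.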
